A study of Bos indicus with 11 samples.

Results

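Of the 11 endometrial biopsies in the series, the 8 with little smooth muscle were compared by pregnancy outcome. They were chosen by the first entry labelled with both ACTG2 and ACTA2, the gamma and alpha smooth muscle actins, called ACTG2 here. Its normalized count had to lie below 80000. The 4 pregnant (P) cows that met this limit were P904, P1631, P1753 and P2396, and the 4 non-pregnant (NP) cows were NP238, NP856, NP2541 and NP2810. Cows P617, P1541 and NP638, with more smooth muscle transcript, were left out. P617 is in group P by its sample label but appears as non-pregnant in the supplement. It was kept as labelled, and results that rest on it are also given without it. All were healthy multiparous Nelore cows (Bos indicus), without any transgene or treatment that set the groups apart. Each had been synchronized, inseminated at detected estrus and biopsied on day 6 after AI, in the uterine horn opposite the corpus luteum. Outcome was read on day 30, so every cow was inseminated and an NP label covers failed fertilization as well as embryo loss. Each biopsy is 1 cow and 1 replicate, taken as whole tissue. Biopsy and outcome came from the same cycle.

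The bovine endometrium is built of a luminal epithelium, coiled glands that secrete nutrients for the embryo, and a stroma of fibroblasts, collagen and blood vessels. Beneath it lies the smooth muscle of the myometrium. A biopsy forceps can take these layers in different proportions, and a transcript level in whole tissue follows both the number of cells of a type and the RNA each cell makes. In the results below these cannot be told apart.

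ACTG2 had 28918, 35018, 72206 and 71865 normalized counts in P904, P1631, P1753 and P2396, and 17427, 22537, 43859.9 and 13869 in NP238, NP856, NP2541 and NP2810. Values for single cows are given in this cow order throughout. The highest biopsy inside the limit, P1753, had 72206 and the lowest one outside it, NP638, had 89878, while P1541 and P617 had 165234 and 215006. Removing the 3 biopsies therefore narrowed the range of muscle transcript without making it equal. The 20 smooth muscle genes listed as markers summed to between 129532 and 279238 normalized counts in the 4 P cows and between 77115 and 187981 in the 4 NP cows. Of these 20 genes, 19 had a higher mean in P cows, with a median log2 difference of -0.96 (NP minus P) for the list. Their p-values are not given, because ACTG2 chose the biopsies.

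**Figure D1:**
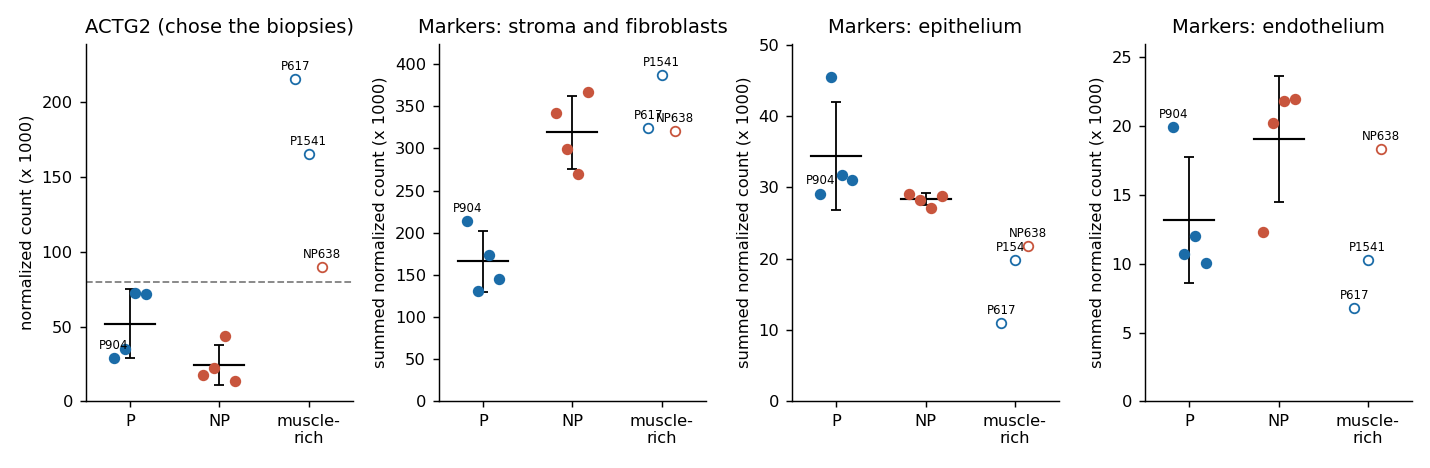
Normalized counts of ACTG2 and summed normalized counts of 3 marker lists in each cow, in units of 1000. Filled points are the 8 muscle-poor biopsies with their mean and SD (bars), open points are the 3 muscle-rich biopsies (blue P, red NP), and the dashed line is the limit of 80000. The stroma markers of the 4 NP cows, from 269526 to 366606, lie above those of the 4 P cows, from 131420 to 214403.

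Summed markers of stroma were apart by outcome in these 8 biopsies, and those of epithelium and of gland and epithelial transcription factors only narrowly so. Those of the other cell types overlapped, among them motile cilia, mast cells, granulocytes, nerve and lymphatic endothelium. The 18 stroma and fibroblast markers found summed to 131420 to 214403 normalized counts in P cows and to 269526 to 366606 in NP cows, without overlap. The 21 epithelial markers found summed to 29134 to 45527 in P cows and to 27137 to 29004 in NP cows, in the other direction. These ranges did not overlap, but the lowest P cow, P904, and the highest NP cow, NP238, were nearly equal. Endothelial markers overlapped, at 10020 to 19897 in P cows and 12325 to 21978 in NP cows, as did pericyte markers, at 4228 to 9086 and 8087 to 10046. Leukocyte markers summed to 1754 to 2179 in P cows and 1741 to 3338 in NP cows. Red cell markers reached at most 13.1 normalized counts in any P cow, and the erythrocyte gene SLC4A1 was at 0 in all 8, as were the mast cell gene MS4A2 and the eosinophil receptor IL5RA. The part that these shifts have in the gene differences below was not tested, apart from the fits with a covariate given at the end. Depth overlapped between the groups. Between 9290949 and 12035561 reads on genes stood behind each P cow and between 9783673 and 13569085 behind each NP cow (p = 0.743, exact permutation test, two-sided).

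The comparison asked which genes differed by outcome once the muscle-rich biopsies were set aside. No gene passed. Of the 24616 genes in the table, 18667 had a read in at least 1 of the 8 biopsies. With limma on log2(normalized count + 1), 0 of 15011 genes whose mean reached 5 in the 8 biopsies had a Benjamini-Hochberg adjusted p-value under 0.1, which is 0% of the genes tested. The smallest adjusted p-value was 0.136, shared by 9 genes, and 49 genes lay under 0.2, of which 43 were higher in NP cows. An unadjusted limma p-value under 0.05 is called nominal below, and 1536 genes had one. They were nominally higher in NP cows for 959 genes (6.39% of the genes tested) and nominally higher in P cows for 577 (3.84%). The 4 NP cows all lay above the 4 P cows in 493 genes (3.28%), and all lay below them in 264 genes (1.76%). These shares are the background against which the lists of genes below are read. Over all genes tested the median log2 difference was -0.023. On the recovered reads, limma-voom and edgeR's quasi-likelihood test called 0 genes as well, with 1492 and 1456 nominal genes, whereas DESeq2 called 372 genes, 287 of them higher in NP cows.

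Most collagen genes had a higher mean in NP cows, although no single gene passed the adjusted test in limma. COL5A2 and COL1A1 passed under DESeq2. Of 27 collagen genes tested, 14 were nominally higher in NP and 2 in P cows, and in 10 the NP cows all lay above the P cows. The list had a median log2 difference of 0.61. COL5A2 (ENSBTAG00000027020), a chain of collagen V that helps to start collagen fibrils, had 2464, 1692, 2726 and 1859.7 normalized counts in P cows and 5408, 5463, 3968 and 5193 in NP cows. The lowest NP cow, NP2541, still lay above the highest P cow. The log2 difference was 1.21 ± 0.18 (SE), or 2.32-fold, with an adjusted p-value of 0.136 in limma. COL1A1, which encodes a chain of collagen I, had 22743, 21949.7, 28827 and 20567 normalized counts in P cows against 45872, 43638, 37759.9 and 44299.5 in NP cows, again without overlap. Its log2 difference was 0.87 ± 0.18 (adjusted p = 0.213). The partner chain COL1A2 ranged from 29136 to 40507 in P cows and from 54754 to 80762 in NP cows, and COL3A1, of collagen III, from 42597 to 82044 and from 94855 to 148227. COL6A6, a chain of collagen VI found here at a low level, had 1.92, 3.43, 4.03 and 1.75 normalized counts in P cows and 12.1, 45.2, 31.4 and 80.5 in NP cows, so that its log2 difference of 3.28 ± 0.58 rests on few reads in P cows.

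Genes for the proteins that link and arrange these fibrils followed the same order. Of 39 genes for proteoglycans and elastic fibres, 17 were nominally higher in NP and 0 in P cows, and 13 did not overlap, with a median log2 difference of 0.56. LOX and LOXL3 encode lysyl oxidases, which cross-link collagen and elastin. LOX had 192, 127, 139.9 and 168 normalized counts in P cows and 309, 276, 294 and 279 in NP cows (log2 difference 0.90 ± 0.17, adjusted p = 0.171). For LOXL3 the values were 181, 100.5, 182 and 128 in P cows and 264, 311, 274 and 286 in NP cows (log2 difference 0.98 ± 0.21, adjusted p = 0.215). Neither gene had a P cow within the NP range. FBN1, the main protein of microfibrils, ranged from 1564 to 2141 in P cows and from 2735 to 3151 in NP cows, and the small proteoglycan genes BGN and DCN had log2 differences of 1.07 ± 0.23 and 0.91 ± 0.24. In DCN, P904 stood closest to the NP cows, at 38710.3 normalized counts against 44069 to 56019.

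Of 40 genes for matrix proteases and their inhibitors, 28 had a higher mean in NP cows and 12 in P cows. Of these, 15 were nominally higher in NP and 2 in P cows, and 7 and 1 did not overlap. ADAMTS1 (ENSBTAG00000000706), a protease that cleaves versican, had 1367, 979, 1239 and 986 normalized counts in P cows and 2398, 2506, 2065 and 3205 in NP cows. The log2 difference was 1.15 ± 0.16 and the adjusted p-value 0.136. ADAM12, a membrane metalloprotease, had 293, 145, 266 and 228 in P cows and 869, 656, 514 and 931 in NP cows, a 3.2-fold difference (log2 1.68 ± 0.26, adjusted p = 0.136). In both genes the groups did not overlap, and P1631 was the lowest P cow. KIAA1199, whose product breaks down hyaluronan, had 109, 126, 179 and 189.9 normalized counts in P cows and 482, 334, 329 and 420.0 in NP cows (log2 difference 1.39 ± 0.22, adjusted p = 0.14), although the list of hyaluronan genes as a whole had only 2 nominal genes of 13 tested. Among 19 laminin and basement membrane genes, 8 were nominally higher in NP and 1 in P cows. The exception was FREM1, with 111, 281, 411 and 268 normalized counts in P cows and 75.9, 63.5, 98.8 and 91.7 in NP cows. FRAS1, which forms a basement membrane complex with FREM1, went the other way, with 7.66, 4.57, 6.04 and 4.38 and 37.4, 14, 33.7 and 47.9.

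Among vessel genes, those of pericytes and endothelium had higher means in NP cows. Of 4 lymphatic endothelial markers tested, 3 had a higher mean in P cows. PDGFRB (ENSBTAG00000002804), the platelet-derived growth factor receptor of pericytes and fibroblasts, had 1797, 1378, 1585 and 1433 normalized counts in P cows and 3119, 2427, 2677 and 2657 in NP cows. The groups did not overlap, with a log2 difference of 0.81 ± 0.12 and an adjusted p-value of 0.136. ABCC9, a channel subunit of pericytes, ranged from 168 to 588 in P cows and from 669.7 to 862 in NP cows. All 11 pericyte markers tested had a higher mean in NP cows, 4 of them nominally. ICAM1 (ENSBTAG00000010303), to which leukocytes bind on activated endothelium, came first of all genes by p-value, with 203, 152, 169 and 162 normalized counts in P cows and 351, 331, 356 and 383 in NP cows. That is 2.08-fold, or 1.05 ± 0.14 on the log2 scale (adjusted p = 0.136). Endothelial markers were higher in NP cows in 18 of 19 genes, 9 of them nominally, but in only 1 of the 19 did the groups not overlap. That gene was FLT1, a receptor of vascular endothelial growth factor, at 598, 323, 386 and 331 and 623, 635, 810.0 and 656. In TIE1, TEK and CDH5 P904 reached the NP range. For TEK, the angiopoietin receptor, P904 had 1066 normalized counts and the NP cows 898 to 1769.6. Of 21 vascular growth factor and receptor genes, 9 were nominally higher in NP and 1 in P cows, with a median log2 difference of 0.71, which was 0.40 without P1631.

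C1R and C1S, the paired proteases of the first complement complex, had more transcript in every NP cow than in any P cow. C1R had 1610.4, 1030.1, 1055 and 1039.7 normalized counts in P cows and 2539.7, 2028, 2358 and 2778 in NP cows (log2 difference 1.05 ± 0.17, adjusted p = 0.14). C1S had 2657, 1664, 1710.3 and 1789 and 3990.1, 3152, 3880.1 and 4044 (log2 difference 0.97 ± 0.16, adjusted p = 0.167). In both, 3 P cows were nearly equal and P904 stood above them, though still below every NP cow. Of 28 complement genes tested, 7 were nominally higher in NP and 1 in P cows. The latter was MASP1, a protease of the lectin pathway, with 26.8, 48, 30.2 and 25.4 and 10.1, 14, 7.84 and 3.06 normalized counts. RGS1 (ENSBTAG00000021672), a brake on G protein signals in lymphocytes, had 23, 12.6, 13.1 and 14.9 normalized counts in P cows and 186, 67.8, 127 and 59.1 in NP cows, a log2 difference of 2.60 ± 0.41 (adjusted p = 0.14). LRFN5, an adhesion protein of synapses, had at most 3 reads in any P cow and 91, 68.8, 36.1 and 11.2 normalized counts in NP cows, so that their mean was at least 17.3-fold above 3 counts, the floor used here. Among 24 leukocyte markers, 7 were nominally higher in NP and 1 in P cows, with the T cell kinase ZAP70 at 42.3 to 127 and 124 to 176 and the plasma cell gene IGJ, higher in P cows, at 335 to 1126 and 227 to 573. Of 24 genes for antigen presentation 3 were nominally higher in NP cows, led by BOLA-DRB3, a class II histocompatibility chain, at 746, 592, 825 and 475 and 1133, 1409, 1252 and 1246 (log2 difference 0.96 ± 0.17, adjusted p = 0.167). Reads of this gene could be split with near-identical relatives in its family.

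**Figure D2:**
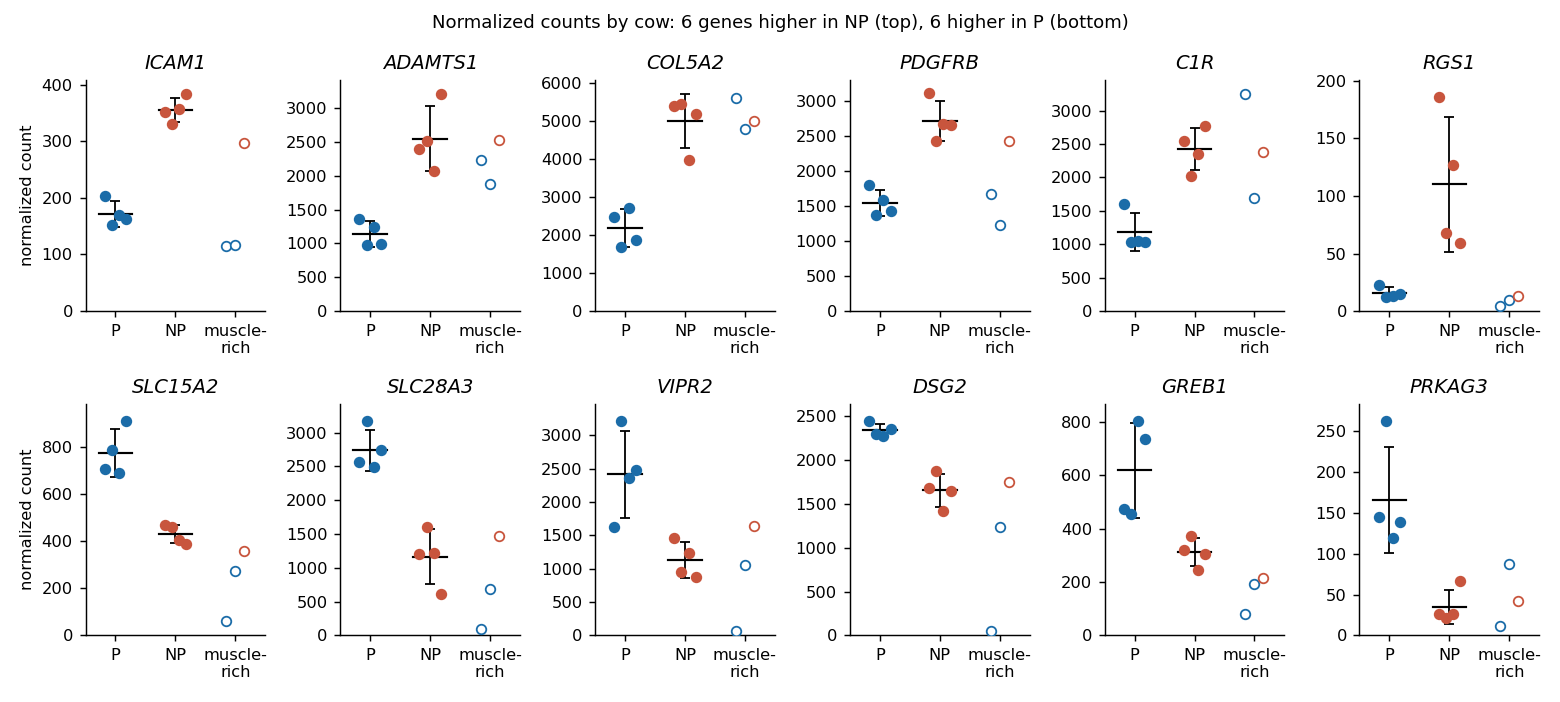
Normalized counts of 12 genes in each cow, with the mean and SD of the 4 P and the 4 NP muscle-poor biopsies (filled points) and the 3 muscle-rich biopsies as open points (blue P, red NP). In all 12 genes the filled points of the groups do not overlap. P617 is the lowest of the 11 cows in the 6 genes of the lower row, as in SLC28A3 at 96 normalized counts.

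Transporters and a junction gene of epithelia were among the genes with more transcript in P cows. SLC15A2 (ENSBTAG00000033166), a proton-driven peptide transporter, had 707, 786, 691 and 910.2 normalized counts in P cows and 468, 458, 403 and 389 in NP cows. The lowest P cow lay well above the highest NP cow, with a log2 difference of -0.84 ± 0.13 and an adjusted p-value of 0.136. SLC28A3 (ENSBTAG00000018280), which takes up nucleosides with sodium, had 2558, 3168, 2488 and 2738 in P cows and 1203, 1608, 1215 and 619 in NP cows, a 2.48-fold difference (log2 -1.31 ± 0.25, adjusted p = 0.192). DSG2 (ENSBTAG00000021923), a cadherin of desmosomes, had 2444, 2298, 2279 and 2354 in P cows and 1681, 1877, 1419 and 1644 in NP cows. The P cows were within a narrow band, and the log2 difference was -0.51 ± 0.11 (adjusted p = 0.213). VIPR2 (ENSBTAG00000037649), a receptor of vasoactive intestinal peptide, had 1620.0, 3210.2, 2366 and 2477 and 1462, 944, 1234 and 883 normalized counts (log2 difference -1.08 ± 0.23, adjusted p = 0.213). Here P904 was the lowest of the P cows and NP238 the highest of the NP cows, and these came close to each other.

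Other genes higher in P cows had roles in energy use, heme and estrogen response. PRKAG3 (ENSBTAG00000013492), a gamma subunit of the AMP-activated kinase, had 145, 263, 119 and 139 normalized counts in P cows and 26.3, 21.5, 25.9 and 66.3 in NP cows, of which NP2810 was the highest. The log2 difference was -2.30 ± 0.39 (adjusted p = 0.167). FECH, the last enzyme of heme synthesis, ranged from 860.3 to 1175 in P cows and from 553 to 729 in NP cows (adjusted p = 0.192). GREB1, an early target of the estrogen receptor, had 473, 456, 804 and 737 in P cows and 321, 372, 246 and 306 in NP cows (log2 difference -0.96 ± 0.22, adjusted p = 0.22). The estrogen receptor gene itself, ESR1, overlapped, at 1246 to 3267 and 779.8 to 1659.8. The retinoic acid binding protein gene CRABP1 ranged from 339 to 447 in P cows and from 191 to 244 in NP cows, and the transcription cofactor gene LBH from 3662 to 4611 and from 2312 to 3135. CRABP1 had an adjusted p-value of 0.192 and LBH of 0.171. OOEP, known from oocytes, was low, at 28.7, 24, 56.4 and 35 in P cows and 6.07, 5.38, 7.84 and 13.3 in NP cows. DYNLT1, a dynein light chain, ranged from 886 to 1099 and from 576 to 808, and FAM184A and TMC5 had log2 differences of -1.26 ± 0.27 and -1.13 ± 0.25, all without overlap.

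The epithelial marker lists also had higher means in P cows, with fewer genes apart. Of 21 epithelial markers tested, 19 had a higher mean in P cows, but 1 of them did so nominally and in 0 the groups did not overlap. The median log2 difference was -0.34. Of 12 gland and epithelial transcription factor genes, 9 had a higher mean in P cows, 3 nominally, with a median of -0.49. MSX1 (ENSBTAG00000010875), a homeobox factor of the uterine epithelium, had 11874, 14139, 13749.7 and 13929.8 normalized counts in P cows and 8493, 9849.9, 8789.7 and 9809 in NP cows, without overlap (log2 difference -0.54 ± 0.13, adjusted p = 0.232). FOXA2, needed for uterine glands to form, ranged from 281 to 479.6 in P cows and from 161 to 329 in NP cows, with overlap. The adhesion marker EPCAM had 3409.6, 4719, 3439.7 and 3904 and 2914, 2839, 3719 and 3530.0. The glucose transporter gene SLC5A1 had 37.4, 244, 103 and 165 normalized counts in P cows and 19.2, 60.2, 19.6 and 7.14 in NP cows, a log2 difference of -2.40 ± 0.69 with overlap between P904 and NP856 (adjusted p = 0.296). Of 26 nutrient transporters tested, 2 were nominally higher in each direction.

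The growth factor lists held genes of both directions. Of 19 genes of the insulin-like growth factor system, 6 were nominally higher in NP and 1 in P cows. IGF1 had 239, 143, 212 and 213 normalized counts in P cows and 648, 297, 499 and 622 in NP cows (log2 difference 1.32 ± 0.26, adjusted p = 0.199). IGF2 had 6413, 4647, 2219 and 4189 and 10270.1, 8691, 9151 and 10344 (log2 difference 1.23 ± 0.28, adjusted p = 0.216). Neither ligand overlapped between the groups. Of 30 TGF-beta and BMP genes, 14 were nominally higher in NP and 2 in P cows. BMP6 had 39.3, 37.7, 49.3 and 32.4 in P cows and 87, 118, 73.7 and 154 in NP cows, and the receptor TGFBR2 ranged from 2247 to 4515 and from 4945 to 6542. The 36 WNT pathway genes were evenly divided, with 18 higher in each group, 8 nominally so in NP cows and 3 in P cows, and a median log2 difference of 0.053, which lay between -0.0297 and 0.119 when single cows were left out. WNT2 was among the former, with 514, 349, 284 and 228 normalized counts in P cows and 1134, 874, 590.5 and 1167 in NP cows (log2 difference 1.47 ± 0.28, adjusted p = 0.192), as was SFRP1, a secreted WNT antagonist, with 7328, 1501, 2776 and 2521 and 8870.2, 8869, 8652 and 13150.5. In SFRP1, P904 lay near the NP cows and the other 3 P cows far below them. Of 51 semaphorin, ephrin and guidance genes, 12 were nominally higher in NP and 2 in P cows, and ROBO1, a receptor of the SLIT ligands, had 376, 319.8, 411 and 304 and 707, 528, 587 and 682 (log2 difference 0.83 ± 0.15, adjusted p = 0.167).

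Of 23 sterol synthesis genes, 20 had a higher mean in P cows, 5 did so nominally and 2 without overlap, with a median log2 difference of -0.19. DHCR7, the last enzyme of cholesterol synthesis, had 644, 533, 637 and 538 normalized counts in P cows and 456, 499, 457 and 321 in NP cows. Of 34 detoxification genes, 6 were nominally higher in P cows and 3 in NP cows, and 4 and 1 did not overlap. The antioxidant gene CAT, encoding catalase, had 3681, 4273, 3846 and 3914 and 3299, 2792, 2714 and 3246 (log2 difference -0.39 ± 0.11, adjusted p = 0.292). SOD3, the extracellular superoxide dismutase, went the other way with 162, 131, 172 and 112 and 295, 279, 272 and 362 (log2 difference 1.07 ± 0.18, adjusted p = 0.167). Nominal genes numbered 0 of 35 for the cell cycle and 1 of 36 for oxidative phosphorylation. Of 26 immediate early and stress genes, 4 were nominally higher in NP cows, all without overlap. IGSF10, an immunoglobulin superfamily gene on none of these lists, had 406, 278, 422 and 287 in P cows and 802, 665, 805 and 912 in NP cows (adjusted p = 0.136). JUN, a subunit of the AP-1 factor, had 1525, 1377, 1220.0 and 1014 in P cows and 2229, 2052, 1991 and 2450.5 in NP cows (log2 difference 0.77 ± 0.14, adjusted p = 0.168).

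The next question was what appeared and what was lost when the 3 muscle-rich biopsies were removed. Over all 11 biopsies limma called 0 of 15081 genes, with a smallest adjusted p-value of 0.147. The study used DESeq2 on these 11 biopsies and did report genes under its threshold of 0.1, most of them higher in NP cows. DESeq2 was not run on the 11 here, so this count of 0 belongs to limma. Nominally, 828 genes had more transcript in NP cows (5.49%) and 354 had more in P cows (2.35%). The 2 comparisons share 8 cows, so their values are set side by side and neither is support for the other. Among the 14921 genes tested in both, 731 were nominal in both, which is 47.8% of the nominal genes in the 8 biopsies and 62.1% of those in the 11. The share of nominal genes that were higher in NP cows was 62.4% in the 8 biopsies and 70.1% in the 11.

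Genes that appeared had an unadjusted p-value under 0.05 in the 8 biopsies and one over 0.2 in the 11. A stronger test in the 8 follows from this rule. There were 488 of them, 269 higher in P cows and 219 higher in NP cows. The reverse, a p-value under 0.05 in the 11 and over 0.2 in the 8, held for 38 genes, 22 higher in P cows. SLC15A2, SLC28A3, VIPR2 and DSG2 all belonged to the genes that appeared. In SLC28A3 the log2 difference was -1.31 ± 0.25 in the 8 biopsies and -0.09 ± 0.81 in the 11. P617, P1541 and NP638 had 96, 685 and 1468 normalized counts of it, so that both muscle-rich P biopsies lay far below the muscle-poor ones. For VIPR2 the values of these 3 biopsies were 73.4, 1051 and 1635, and the log2 difference went from -1.08 ± 0.23 in the 8 to 0.05 ± 0.82 in the 11. DSG2 changed sign, from -0.51 ± 0.11 in the 8 biopsies to 0.57 ± 0.87 in the 11, with 52 normalized counts in P617. It was 1 of 93 genes that were nominal in the 8 and had the opposite sign in the 11, and 0 genes met the reverse of this. Of the 3 muscle-rich biopsies, only the removal of P617 is followed here for these genes, so the part of the others was not compared. With P617 alone removed from the 11, 130 of the 488 genes that appeared still had a p-value over 0.2 and 145 were nominal. In that fit 1350 of all 15081 genes tested were nominal, and 0 genes nominal in the 8 had the opposite sign. The log2 difference in the 10 biopsies was -0.31 ± 0.18 for DSG2, -0.83 ± 0.40 for SLC28A3 and -0.74 ± 0.29 for VIPR2. SPHKAP, a protein that anchors protein kinase A, had 82.4, 233, 90.6 and 110.3 normalized counts in P cows and 30.3, 46.2, 29 and 48.9 in NP cows, and 1.13, 0 and 7.1 in the muscle-rich biopsies.

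Some genes that appeared and were higher in NP cows had the opposite form. COL1A1 was at 63342, 93377 and 57989 normalized counts in P617, P1541 and NP638, above all 8 muscle-poor biopsies, and its log2 difference was 0.87 ± 0.18 in the 8 and 0.39 ± 0.42 in the 11. LOXL3 was at 587, 321 and 308, with log2 differences of 0.98 ± 0.21 and 0.47 ± 0.38. JUN was at 4496, 2277 and 2427, with 0.77 ± 0.14 and 0.36 ± 0.32. DCHS1, a large protocadherin, had 778, 661, 876 and 747 in P cows, 1191, 1139, 1238 and 1249.7 in NP cows and at least 1597 in each muscle-rich biopsy. In these genes the muscle-rich P biopsies held as much transcript as the NP cows or more. Without P617 the log2 differences were 0.56 ± 0.40 for COL1A1, 0.77 ± 0.26 for LOXL3, 0.64 ± 0.19 for JUN and 0.52 ± 0.22 for DCHS1, the last 3 nominal.

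**Figure D3:**
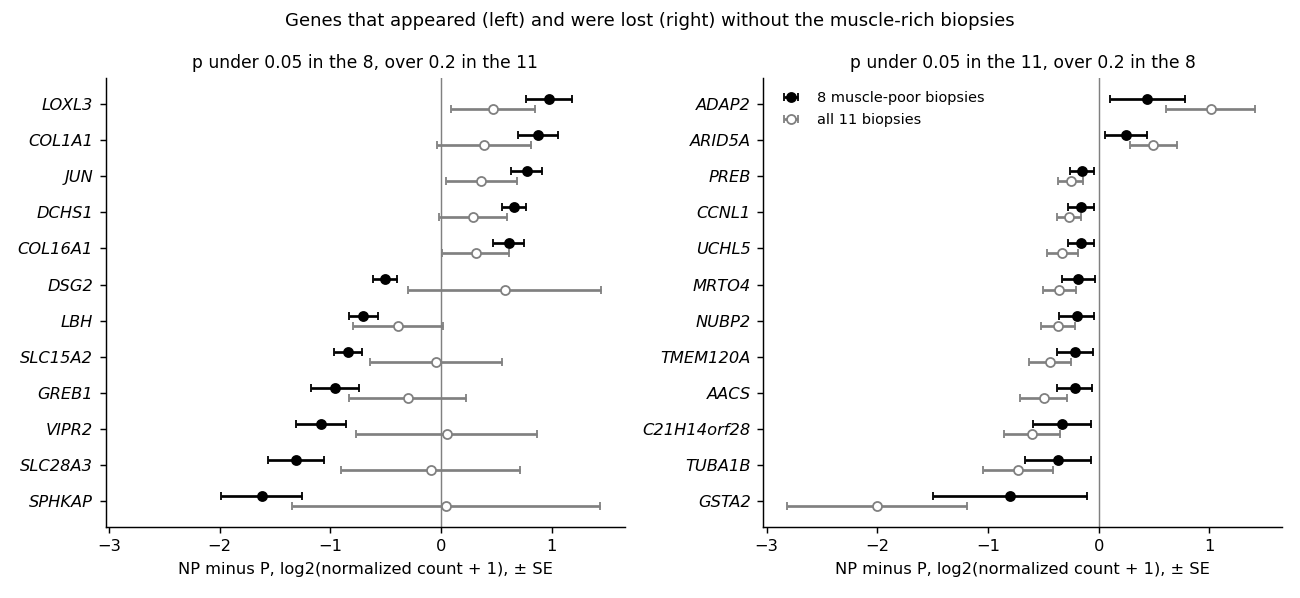
Log2 differences, NP minus P, with their SE for the 12 genes that appeared (left) and the 12 that were lost (right) without the muscle-rich biopsies, in the 8 biopsies (filled) and in all 11 (open). For the genes that appeared the SE is smaller in the 8 biopsies, as for SLC28A3, which the rule that picked them favours. DSG2 changes sign, which it does not when P617 alone is removed from the 11.

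A gene counted as lost has a weak test in the 8 biopsies by the rule itself. ADAP2 had a log2 difference of 1.01 ± 0.40 in the 11 biopsies and 0.44 ± 0.34 in the 8, and P617, P1541 and NP638 had 9.04, 13.6 and 63.9 normalized counts of it. GSTA2, a glutathione transferase, had a log2 difference of -0.80 ± 0.70 in the 8. P617 and P1541 had 19.2 and 72.6 normalized counts of it, and 7 of the 8 muscle-poor biopsies had at most 6.71. TUBA1B, an alpha-tubulin, went from -0.73 ± 0.32 to -0.37 ± 0.30, with 9865 and 8049.9 normalized counts in the muscle-rich P biopsies. The other 9 genes named among those lost had log2 differences between -0.33 and 0.25 in the 8 biopsies. Of the 12, only ADAP2 was still nominal when P617 alone was removed from the 11, at 0.78 ± 0.35.

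Whether a difference itself changed between strata was tested with an interaction term over the 11 biopsies. No gene passed, the smallest adjusted p-value being 0.383, and 1886 genes (12.5%) were nominal for it. The muscle-poor side of that test is the difference in the same 8 biopsies. Genes nominal there are favoured by it in advance, and an overlap between them is no support for either. The muscle-rich side holds 2 P cows and 1 NP cow. Without P617 it holds 1 of each, limma called 0 genes and 894 were nominal. SLC28A3, SLC15A2, COL5A2 and LOX were among those that were nominal for it, with and without P617. Of the 1529 nominal genes in the 8 biopsies that were tested in both, 337 were also nominal for the interaction, and 175 without P617. So were 18 of 37 interferon-stimulated genes, or 6 without P617, while their median log2 difference was 0.023 in the 8 biopsies, 0.41 in the 11 and 0.19 in the 11 without P617, and 1 of them was nominal in the 8. That gene was IFI44, with 53.6, 75.4, 80.5 and 48.1 normalized counts in P cows, 19.2, 32.3, 40.8 and 47.9 in NP cows and 19.2, 115 and 135 in P617, P1541 and NP638.

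The medians of several lists differed in sign between the 8 and the 11 biopsies. Epithelial markers had a median log2 difference of -0.34 in the 8 biopsies and 0.30 in the 11, gland and epithelial transcription factors -0.49 and 0.37, and motile cilia genes -0.24 and 0.62. With P617 alone removed from the 11 these medians were -0.20, -0.30 and 0.031. In the 8 biopsies the epithelial median was -0.15 without P1631, and that of the motile cilia genes was 0.19 without P2396 and -0.81 without P1753, so that 1 cow sets its sign. Stroma markers had 0.56 and 0.35, and collagens 0.61 and 0.33. Of 18 stroma markers, 12 were nominally higher in NP cows in the 8 biopsies and 3 in the 11, or 7 in the 11 without P617. For endothelial markers the order was reversed, with 9 of 19 in the 8, 15 in the 11 and 13 in the 11 without P617. In the 11 without P617, 1350 of all 15081 genes tested were nominal, counting both directions. The muscle-rich P617 had the lowest summed epithelial and endothelial markers of all cows, at 11001 and 6762 normalized counts, beside 949425 for smooth muscle.

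**Figure D4:**
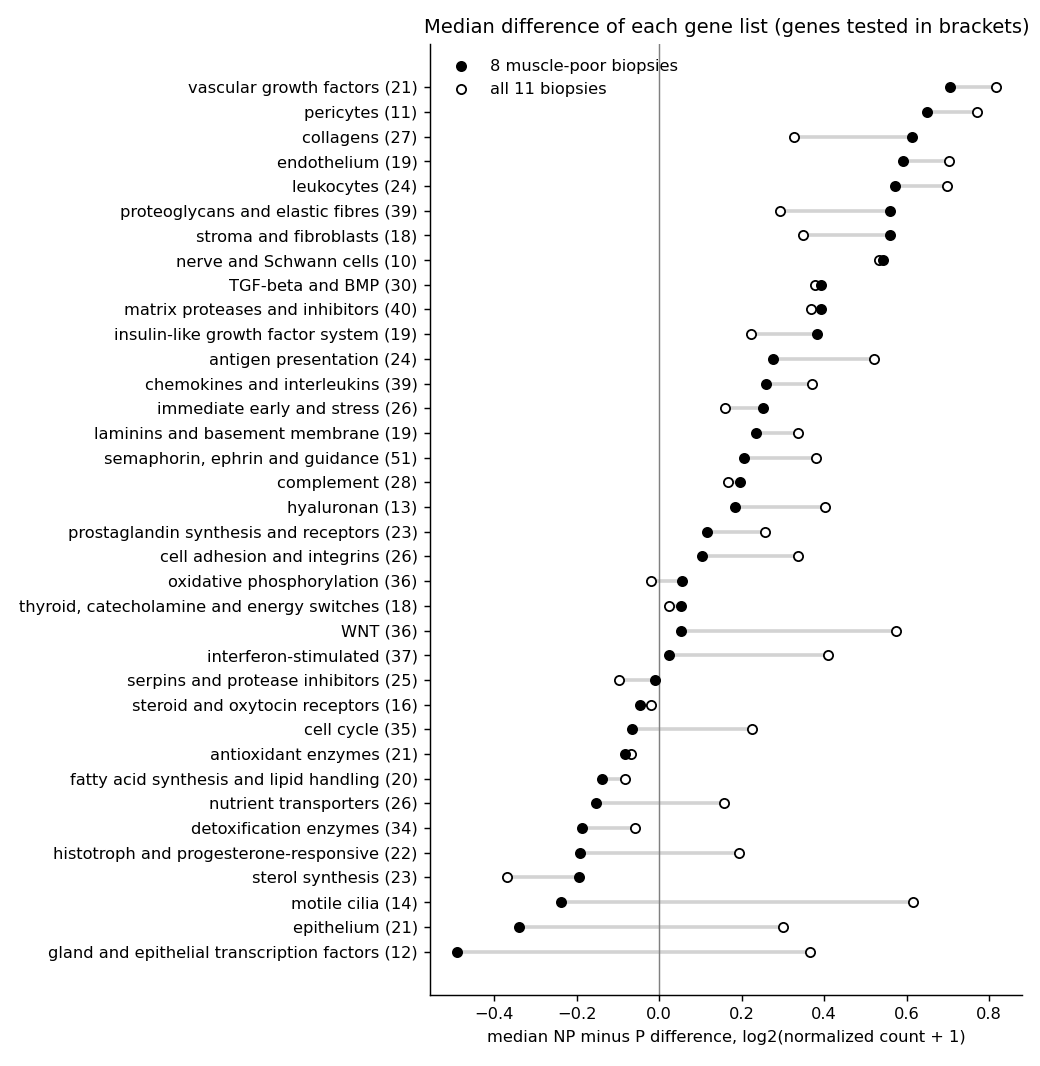
Median log2 difference, NP minus P, of each gene list with at least 10 genes tested, in the 8 muscle-poor biopsies (filled) and in all 11 (open). Smooth muscle genes and the genes named by the study are left out. The epithelial list moves from 0.30 in the 11 to -0.34 in the 8, and the collagens from 0.33 to 0.61.

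The genes that the study itself names had been picked on samples that include these biopsies, so their direction in 8 of the same cows is not independent evidence. The study called genes with DESeq2 and reported that qRT-PCR of some, in these and further cows, gave largely the same result. Used here were its leading genes by fold and those its text names, not its longer full lists. The 29 symbols named as higher in NP cows matched 30 genes of the table, 2 of them under ULBP3. All 30 had a higher mean in NP cows in the 8, 28 nominally and 21 without overlap, and their median log2 difference was 1.59 against 1.73 in the 11. The 2 that were not nominal were AK5, an adenylate kinase, and ULBP3 (ENSBTAG00000038112), whose family has near-identical copies that could share reads. AK5 had 153, 534, 165 and 42.8 normalized counts in NP cows and 539 in NP638. Of the 20 genes taken as higher in P cows, 19 could be tested, 17 were nominal and 13 did not overlap, with a median of -0.99 against -1.08. RGS17 was not tested because its mean in the 8 was 3.01, with 1.75 to 10.1 normalized counts in P cows and at most 2.15 in NP cows. DIO2 of the first set, an enzyme that activates thyroid hormone, had 16.3, 5.71, 11.1 and 6.13 normalized counts in P cows and 69.8, 22.6, 36.1 and 49.9 in NP cows. BTRAPPIN-4 and MSLN, of the second set, owed much of their level to P1631, at 2350.3 and 2405 normalized counts.

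Of the 8 cows left out singly, P904 moved the number of genes that passed in limma the most. Without it, limma called 412 genes, of which 355 had more transcript in NP cows (2.36%) and 57 had more in P cows (0.38%), with a smallest adjusted p-value of 0.0248. The 412 genes were picked by leaving P904 out, so where P904 lay in them was partly set by that choice. In 216 of these genes P904 had lain in or beyond the range of the NP cows, and in 165 between the groups. In 31 it lay in or beyond the range of the other 3 P cows, on the side away from the NP cows where beyond it. Among the 412 were C1R (adjusted p = 0.0248 without P904), SFRP1 (0.0248), ICAM1 (0.0329), VIPR2 (0.0391) and FREM1 (0.0329). P904 had the highest stroma, endothelium and pericyte sums of the 4 P cows and the lowest ACTG2. IGFBP2, a carrier of insulin-like growth factors, had 340.1, 22.8, 28.2 and 89.3 normalized counts in P cows and 447, 470.0, 254 and 389 in NP cows, so that P904 stood with the NP cows. Without any other single cow at most 3 genes were called, these being without NP2541.

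Which biopsies entered also moved the count. Adding back NP638 gave 17 calls, 15 higher in NP cows, among them ADAMTS1, PDGFRB, C1R, ICAM1, COL5A2, JUN and FBN1, with SLC15A2 higher in P cows. With all 11 biopsies and the muscle stratum as a covariate 4 genes were called, ICAM1, ADAM12, KIAA1199 and PDGFRB. With the mean log2 level of the epithelial markers as a covariate among the 8 biopsies limma called 0 genes and 720 were nominal. With ACTG2 as the covariate it called 0 and 570 were nominal, against 1536 without either covariate, or 10.2% of the 15011 genes tested. Nominal means an unadjusted p-value under 0.05, so chance alone gives it to a share of about 0.05 of the genes. The 720 and the 570 lie below that share of the 15011 genes, and the 1536 above it. Whether the covariates took away differences by outcome or only precision was not tested.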

How the data were processed

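The authors filtered the paired-end reads, mapped them with Bowtie2 2.1.0 to the masked UMD3.1 assembly and counted reads per gene with HTSeq 0.5.4p2, and deposited 1 table of counts normalized per cow with DESeq2 1.12.1, a signal that is never negative. The annotation and the use of strand are not given in the sources used here. Groups came from the sample labels. In all 11 columns 100% of the values were whole multiples of 1 read's worth, within 0.001, so reads could be recovered. Between 9290949 and 13569085 reads on genes per cow limit the precision of low genes, and intervals between cows include counting error.

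The main test was limma 3.58.1 with a mean-variance trend, run in R 4.3.3 on log2(normalized count + 1), for genes with a mean of at least 5, with the Benjamini-Hochberg adjustment and a threshold of 0.1, as the table holds normalized values. Differences are NP minus P, and on this scale understate the change of low genes. Alternatives were edgeR 4.0.16, DESeq2 1.42.0 without independent filtering and limma-voom on the recovered reads, other normalizations, filters and pseudocounts, covariates, and leaving out or adding single cows. The fits were tested on simulated counts with the same dispersion for every gene. That setting differs from these biopsies, so it cannot tell why limma and DESeq2 differ here. P-values measure the spread between cows. Exact permutation tests of 4 against 4 cows cannot go below 0.0286.

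The biopsies, the comparison and the gene lists were chosen with earlier results of these data known. Named are, in each direction, the 12 genes that passed the test or, since 0 passed, those with the smallest p-values and a mean of at least 20, the 12 that appeared and the 12 that were lost, up to 4 genes of each list by p-value, genes the study names, and cell type markers. Placeholder names were passed over. Overlapping genes and near-identical copies may share reads. Sequences and coordinates were not used here.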

Additional observations from a re-analysis of the deposited data

Results flagged for a closer look

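Among 90 groups of 4 cows, over 42 genes and sums, 6 held 1 cow whose gap to the nearest other exceeded the 95% critical value of Dixon's test. Chance flags about 1 group in 20, so 6 of 90 is near what it gives. In P cows, P904 had 1610 normalized counts of C1R where the other 3 had 1030 to 1055, and 2657 of C1S where the others had 1664 to 1789. P1631 had a mean log2 level of the epithelial markers of 9.89 against 9.16 to 9.21 in the other P cows. In NP cows, NP2810 had 66.3 normalized counts of PRKAG3 against 21.5 to 26.3 and 2.04 of GSTA2 against 3.92 to 4.30, the latter on a few reads. NP2541 had 61.2 of C21H14orf28 against 45.5 to 46.9. Leaving out P904 raised the log2 difference of C1R from 1.05 to 1.21 and that of C1S from 0.97 to 1.12.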

How the results depend on the processing

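The count of 0 genes for the 8 biopsies held under edgeR, limma-voom, 3 other scalings, 2 other filters, 2 other pseudocounts and a robust variance. It was 372 under DESeq2, 17 with NP638 added back, 4 over 11 biopsies with the stratum as a covariate, and 0 to 412 when each cow was left out, 412 of them without P904 and 3 without NP2541. In the fits with 3 cows on 1 side the variance is pooled over both groups. The 1536 genes at an unadjusted p-value under 0.05 became 942 with P617 added back and 854 over 11 biopsies with ACTG2 as a covariate. In the 8 biopsies they became 720 with the epithelial markers and 570 with ACTG2 as a covariate, the last chosen after seeing the data. The 720 and the 570 lie below the share of 0.05 of the 15011 genes tested that chance alone gives. Because genes vary together, this is not read as a result, and ACTG2 had also chosen the biopsies. When each cow was left out, 1059 to 2128 genes had such a p-value. Over all 11 biopsies the count of 0 became 171 without P904 and was otherwise 0, a range of 0 to 171. The interaction gave 0 to 1516, with 1516 without P1541, where the muscle-rich side holds 1 P and 1 NP cow, each assumed to vary like the others. Without NP638 it could not be fitted. Signs of single genes were followed for those with the smallest p-values in each direction and those that appeared, not for other named genes. DSG2 turned its sign, to 0.59 with P617 added back and 0.31 over 11 biopsies with the stratum as a covariate. The sign was kept in the other 778 comparisons of such a gene with an alternative. In 70 of these the gene passed the threshold. Under DESeq2 every gene followed in this way passed, among them ICAM1, ADAM12, COL5A2 and SLC15A2. List medians moved by more than the spread between cows in 4 of 420. The causes were not tested. Normalization moved the median of all genes from -0.023 to at most -0.014. No paired analysis was possible because the labels give each cow its own number and no number is shared between the groups. At this depth, a mean of 5 normalized counts rests on a few reads per cow.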
